A study of Mus musculus with 2 samples.

Results

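Broad distal regions are here the long merged intervals around open chromatin of basal epidermal cells that lie away from the ends of protein-coding genes. They were taken from the merged regions of the series, the single list of intervals over which both libraries had been counted. A region was kept if it was autosomal, at least 2000 bp from start to end, over 1 kb from either end of every protein-coding gene in RefSeq (GRCm38), and held at most 10000 counts summed over both libraries. Of 109257 merged regions, 897 (0.821%) met the rule. The study compared interfollicular epidermis, the skin between the hair follicles, of the backs of CD1 mice, an outbred stock. Skin of 1 mouse had been stretched by force to expand it, and 1 untreated mouse served as the control. From each animal 10000 basal cells were sorted as positive for the integrin subunit ITGA6, which anchors cells to the basement membrane, and negative for CD34, which marks stem cells of the follicle bulge. The assay was ATAC-seq: the transposase Tn5 cuts DNA that is not packed in nucleosomes and leaves sequencing adapters at the cuts. There was 1 library per group, so no value below has a replicate check and no p-value is given.

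Most open chromatin away from promoters belongs to enhancers, short elements where transcription factors displace nucleosomes and from which they act on promoters at a distance. Where several elements lie side by side, their open stretches can be merged into a broad region, and such clusters are known to lie near genes that define the identity of a cell. A region far from the outer ends of a gene can also hold the start of a shorter transcript of that gene, or of a non-coding RNA. Mammalian start sites often lie in CpG islands, stretches rich in the CG dinucleotide, while distal enhancers usually are not CpG-rich.

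Start windows in the broad regions ranged from CG-rich to CG-poor, and 8 of them are printed here. RefSeq's windows run from 250 bases before to 50 bases after a transcript start and were available on all chromosomes used except 18. Each is printed 5′ to 3′ along the strand of its transcript, with every CG dinucleotide in capitals. The windows of Stag1, Dyrk2, Ankrd17 and the non-coding RNA Lockd lie in broad regions with a stretched count at least 2-fold higher after TMM scaling. Each of these calls was lost with the scaling by all counts given below. The first 3 were also lost with scaling by the counts outside the regions above 10000 and without the trend with the count. The Lockd call was kept under both of these. The Rbpj window lies in the broad region with the most counts among those holding the start of a protein-coding transcript. The windows of the non-coding RNAs 6530402F18Rik, Gm52705 and Gm11755 are the only ones in broad regions that were at least 2-fold lower.
Stag1 (chr9:100643198-100643497, plus strand): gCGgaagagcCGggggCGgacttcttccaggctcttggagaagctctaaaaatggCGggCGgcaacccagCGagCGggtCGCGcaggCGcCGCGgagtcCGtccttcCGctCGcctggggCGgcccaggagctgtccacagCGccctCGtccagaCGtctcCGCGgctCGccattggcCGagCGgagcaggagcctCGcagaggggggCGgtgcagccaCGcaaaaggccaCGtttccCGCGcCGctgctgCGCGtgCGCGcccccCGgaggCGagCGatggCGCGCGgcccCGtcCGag
Dyrk2 (chr10:118868854-118869153, minus strand): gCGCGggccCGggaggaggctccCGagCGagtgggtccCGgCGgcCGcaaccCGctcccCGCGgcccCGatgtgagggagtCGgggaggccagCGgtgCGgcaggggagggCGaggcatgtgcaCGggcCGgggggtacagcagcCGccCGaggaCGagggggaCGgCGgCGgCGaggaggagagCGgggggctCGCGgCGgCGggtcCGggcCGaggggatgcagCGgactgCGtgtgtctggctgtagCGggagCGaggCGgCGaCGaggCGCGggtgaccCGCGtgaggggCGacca
Ankrd17 (chr5:90366136-90366435, minus strand): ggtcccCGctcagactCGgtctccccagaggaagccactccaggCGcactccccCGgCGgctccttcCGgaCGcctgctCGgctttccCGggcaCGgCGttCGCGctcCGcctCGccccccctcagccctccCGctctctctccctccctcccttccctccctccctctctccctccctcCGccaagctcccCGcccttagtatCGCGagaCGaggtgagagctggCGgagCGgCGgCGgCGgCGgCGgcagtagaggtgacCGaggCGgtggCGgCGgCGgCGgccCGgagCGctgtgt
Lockd (chr6:134928842-134929141, plus strand): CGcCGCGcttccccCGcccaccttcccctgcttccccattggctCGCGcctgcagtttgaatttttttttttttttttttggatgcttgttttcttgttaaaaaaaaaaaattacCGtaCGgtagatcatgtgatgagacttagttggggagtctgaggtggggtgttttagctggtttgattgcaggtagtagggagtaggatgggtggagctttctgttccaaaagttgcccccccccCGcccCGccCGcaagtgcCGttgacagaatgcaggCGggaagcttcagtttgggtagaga
Rbpj (chr5:53590236-53590535, plus strand): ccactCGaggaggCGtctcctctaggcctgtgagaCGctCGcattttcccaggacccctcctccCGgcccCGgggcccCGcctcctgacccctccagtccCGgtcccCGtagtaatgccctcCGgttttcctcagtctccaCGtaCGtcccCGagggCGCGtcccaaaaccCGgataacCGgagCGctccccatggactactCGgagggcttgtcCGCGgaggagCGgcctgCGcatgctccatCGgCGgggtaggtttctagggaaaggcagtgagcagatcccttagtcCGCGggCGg
6530402F18Rik (chr2:29252944-29253243, minus strand): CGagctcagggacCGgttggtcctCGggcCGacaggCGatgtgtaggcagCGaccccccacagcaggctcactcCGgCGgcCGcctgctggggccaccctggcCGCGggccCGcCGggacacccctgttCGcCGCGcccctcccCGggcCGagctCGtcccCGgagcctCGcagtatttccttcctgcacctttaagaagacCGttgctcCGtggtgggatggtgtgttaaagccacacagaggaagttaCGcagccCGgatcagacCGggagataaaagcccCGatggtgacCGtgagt
Gm52705 (chr4:118260490-118260789, plus strand): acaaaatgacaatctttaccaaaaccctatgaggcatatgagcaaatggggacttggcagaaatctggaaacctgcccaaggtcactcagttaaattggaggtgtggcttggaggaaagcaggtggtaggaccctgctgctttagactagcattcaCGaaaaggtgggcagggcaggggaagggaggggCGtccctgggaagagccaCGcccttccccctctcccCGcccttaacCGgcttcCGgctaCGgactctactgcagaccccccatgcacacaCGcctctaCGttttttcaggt
Gm11755 (chr11:119126863-119127162, minus strand): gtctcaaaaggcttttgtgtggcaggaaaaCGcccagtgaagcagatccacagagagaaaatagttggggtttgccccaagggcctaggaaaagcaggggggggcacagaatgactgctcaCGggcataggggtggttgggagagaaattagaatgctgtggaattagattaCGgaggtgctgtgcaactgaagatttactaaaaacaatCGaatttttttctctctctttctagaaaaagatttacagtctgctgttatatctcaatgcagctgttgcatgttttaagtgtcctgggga
These windows held 43 CG dinucleotides at Stag1, 44 at Dyrk2, 36 at Ankrd17, 13 at Lockd and 28 at Rbpj. In the lower regions they held 28 at 6530402F18Rik, 9 at Gm52705 and 4 at Gm11755, so a CG-rich start was present on both sides.

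Per the file headers, peaks were called from 31944854 control and 23876613 stretched fragments. The broad regions took 152006 control and 151383 stretched counts, which is 2.63% and 2.51% of all counts outside the regions above 10000 counts. Control counts per region ran from 7 to 1684 with a median of 148, and stretched counts from 0 to 754 with a median of 151. Of the 897 regions, 880 had at least 20 counts over both libraries and 804 had at least 100. The median length was 2236 bp and the longest region spanned 7795 bp. The regions were chosen by their length, distance and summed counts, so their length is no finding: 2 regions were exactly 2000 bp long, and 6 distal regions of 1999 bp fell just outside. The region nearest to a gene end that was kept lay 1011 bp from Sphk1, and the farthest that was left out lay 987 bp from Serpinb1a. A further 4 distal regions of this length were left out for their counts, which ran from 144476 to 5008477.

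The label distal held for the outer ends of genes but not for all transcript starts. Outside chromosome 18, where the windows were not used here, 172 of 870 broad regions (19.8%) contained at least 1 RefSeq transcript start. In 110 of them it was a start of a protein-coding gene, at an internal position of that gene, and in 62 only of a non-coding RNA. The share with any start was 0.759% in distal regions under 500 bp, 2.18% from 500 to 999 bp, 7.49% from 1000 to 1499 bp and 11.5% from 1500 to 1999 bp. Longer intervals contain more sequence, and this trend was not adjusted for length. By midpoint 484 regions (54.0%, exact binomial interval 50.6 to 57.3) lay inside a protein-coding gene, against 52.1% of distal regions under 500 bp. The median distance to the nearest gene end was 22339 bp, with 280 regions within 10 kb and 134 over 100 kb away. Whether a region lay in an exon or an intron was not analysed here.

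The number of summits, the points of highest fragment pileup that the peak caller set within a peak, varied among the broad regions. The control peak list had a mean of 2.60 summits per region (SD 1.39 over the 897 regions, range 0 to 8), and the stretched list 2.48 (SD 1.27, range 0 to 9). In the control 20 regions had no summit, 184 had 1, 273 had 2 and 201 had 3, and in the stretched library these numbers were 41, 143, 306 and 232. With only summits of a -log10 q of at least 10 the means were 1.23 and 1.31. In 319 regions the control had more summits, in 254 the stretched library, and in 324 the numbers were equal. A listed peak was present in both libraries in 840 regions, in the control alone in 37, in the stretched library alone in 16 and in neither in 4. Most regions held 1 or 2 separate peaks, 413 and 421 of them in the control and 351 and 456 in the stretched library. Neighbouring summits lay a median of 473 bp apart in the control and 609.5 bp in the stretched library. A summit of the other library lay within 100 bp of 62.0% of control summits and 64.9% of stretched summits. The highest summits of both libraries lay within 100 bp of each other in 540 regions and over 500 bp apart in 161. The peak lists came from libraries of unequal depth, and its part in these summit numbers was not tested.

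Over both libraries together, summits were most numerous in the 2927-bp region on chromosome 2 (78020274 to 78023200) nearest Cwc22, a spliceosome factor gene, with 8 in each library. In the 3470-bp region on chromosome 10 (13964592 to 13968061) inside Hivep2, a zinc finger transcription factor gene, the control had 4 summits and the stretched library 9. Its counts were 256 and 348, a fold of 1.44 (1.22 to 1.69, computed as set out below). The region inside Ism1 had 7 and 6 summits with 363 and 332 counts. The region inside Ppargc1a, which encodes a transcriptional coactivator of energy metabolism, had 7 and 6 summits with 214 and 213 counts. Inside Kdm6b, the gene of a histone H3 lysine demethylase, a 3632-bp region had 7 control and 5 stretched summits with 441 and 405 counts. Of these 5 regions only the one near Cwc22 differed in counts by 2-fold or more. At Hivep2 the listed summit number changed without a large change in counts, but many of these summits were weak. Their -log10 q ran from 3.87 to 9.80 in the control, all below the limit of 10 used above. In the stretched library it ran from 2.05 to 22.8.

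**Figure D1:**
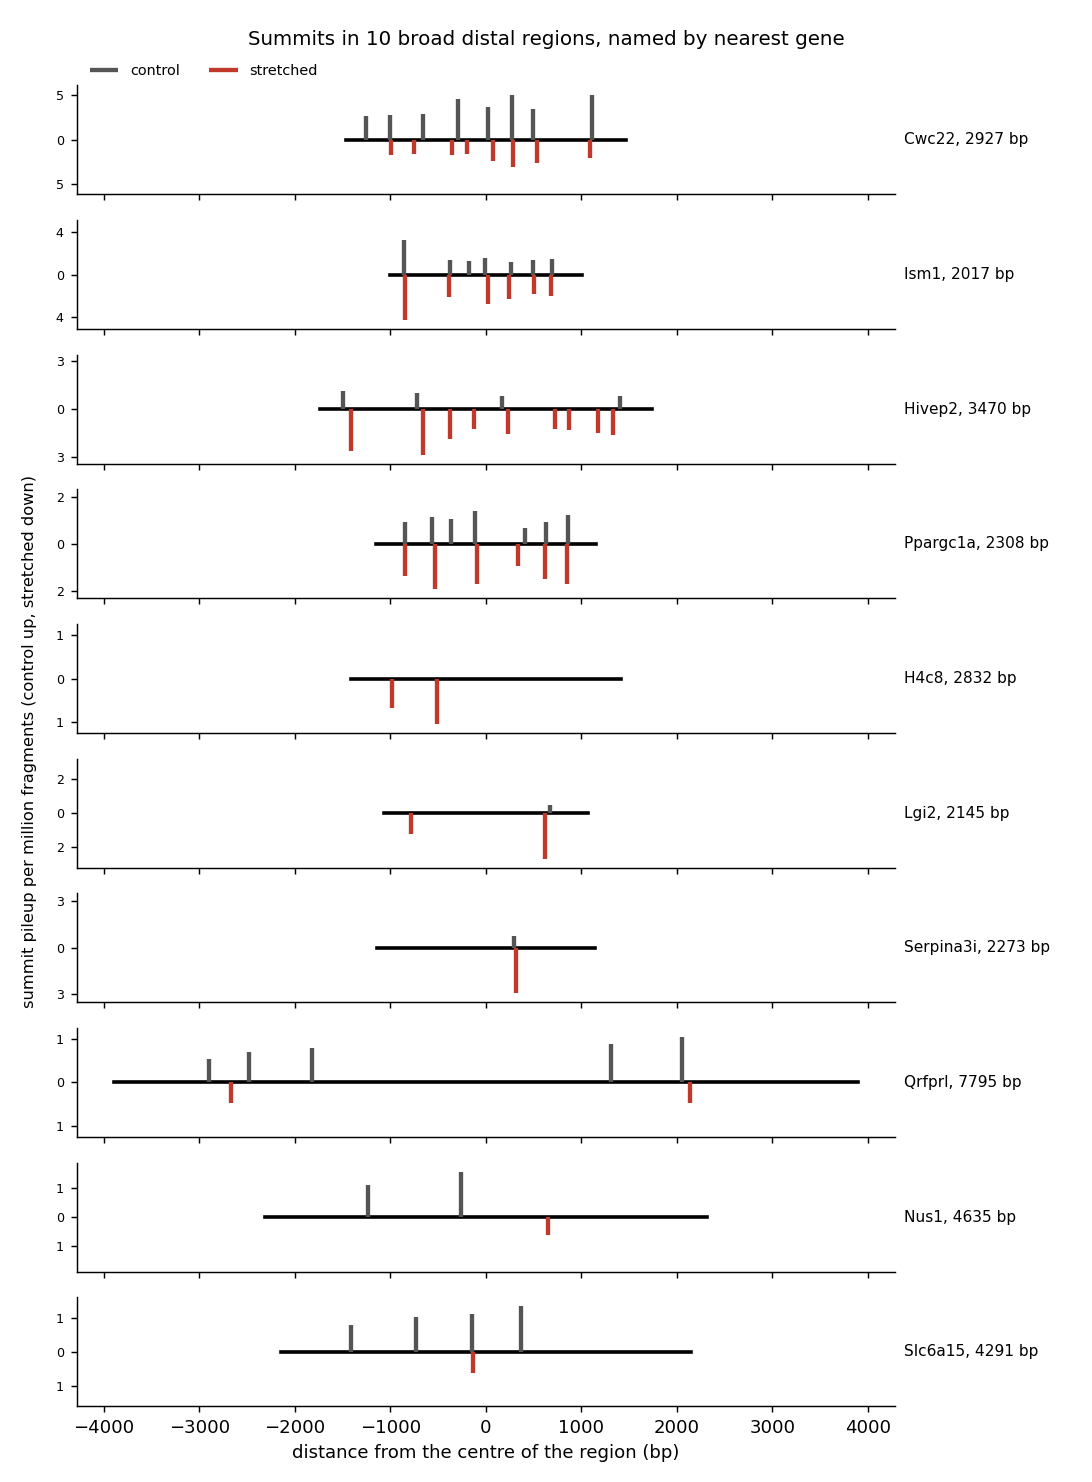
Summits in 10 broad distal regions, chosen as the first of those with the most summits, the largest fold higher and the greatest length. Each black line is a region to scale, with position as distance from its centre in bp, grey bars upward are control summits and red bars downward stretched summits, and bar height is the deposited pileup per 1000000 fragments of the library. Hivep2 shows 4 control and 9 stretched summits, while Qrfprl shows 5 and 2 and Nus1 2 and 1.

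The comparison of the stretched with the control library asked how accessibility differs during expansion of the skin. The fold is the stretched count over the control count after TMM scaling over all merged regions, and the interval beside a fold is an exact 95% interval that covers counting error only. A region was called higher or lower if the fold was at least 2 in that direction, the interval excluded 1 and the region had at least 20 counts. Of the 880 broad regions with that many counts, 24 (2.73%) were higher, where 7.22% of all merged regions were. There were 57 broad regions (6.48%) lower, where 8.71% of all merged regions were. The median log2 fold was 0.04, against -0.00 for all merged regions and -0.05 for shorter distal regions. Of the 109257 merged regions, 109247 had at most 10000 counts, and these held 5776423 of 8820178 control and 6027023 of 11803785 stretched counts. Scaling by all counts thus rests in large part on the few regions above that limit. It moves every log2 fold by -0.50, and scaling by the counts outside the regions above 10000 moves it by -0.14. The median of the broad regions became -0.46 and -0.10. Folds are therefore to be read relative to the median region. With scaling by all counts 1 broad region was higher and 164 were lower (18.6%), where 1.68% and 23.2% of all merged regions were. With scaling by the counts outside the regions above 10000, 10 were higher (1.14%) and 77 lower (8.75%), where 4.92% and 11.8% of all merged regions were. When the lowess trend of the fold with the count was removed, 8 were higher (0.909%) and 85 lower (9.66%), where 7.48% and 7.47% of all merged regions were. The share higher was thus below that of all merged regions under each of these scalings, while the share lower was below it under the first 3 and above it without the trend. Both other scalings move every fold down, so none of the 57 lower calls could be lost under them, and all were kept. Without the trend 53 were kept.

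**Figure D2:**
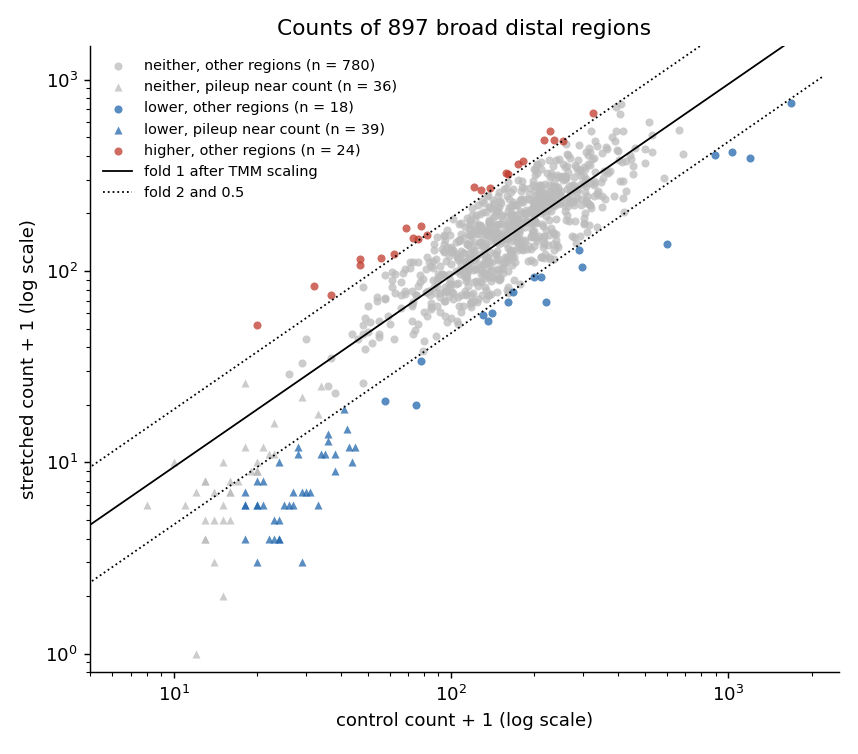
Control against stretched count plus 1 of each of the 897 broad distal regions, both on log scales. The solid line is a fold of 1 after scaling and the dotted lines are folds of 2 and 0.5, red points are higher, blue lower and grey neither, and triangles are the regions where the control pileup reached at least 0.75 of the count. The 39 blue triangles all have at most 44 control counts, and the 5 regions nearest Cwc22 are the blue circles with 598 to 1684 control counts.

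The share of higher calls fell from class to class up to 2000 bp, but not within the broad regions. It was 7.87% under 500 bp, 6.98% from 500 to 999 bp, 5.04% from 1000 to 1499 bp, 3.61% from 1500 to 1999 bp and 2.73% in the broad regions. The share lower was 14.3%, 8.89%, 4.76% and 4.07% in the shorter classes and 6.48% in the broad regions. Within the broad regions the share higher was 3.98% (7 of 176) in those of at least 2500 bp and 6.38% (3 of 47) in those of at least 3000 bp. The share lower was 12.5% (22 of 176) and 27.7% (13 of 47), and in the longest it was 1 of 35 without the 75 regions of few counts described below. Longer regions also held more counts, so the classes were set side by side at 201 to 448 counts, the middle range of the broad regions. There 8 of 449 broad regions (1.78%) were higher and 7 (1.56%) lower, and shorter distal regions had 3.94% higher and 1.69% lower of 7233. The share higher at these counts was 2.17% (1 of 46) under 500 bp, 4.54% from 500 to 999 bp, 3.68% from 1000 to 1499 bp and 3.50% from 1500 to 1999 bp, so it did not follow length through all classes. The median log2 fold at these counts was 0.08 in the broad regions, 0.12 in shorter distal regions and 0.10 in 564 regions of at least 2000 bp at gene ends. With 1 animal per group the spread of these shares between animals is unknown.

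**Figure D3:**
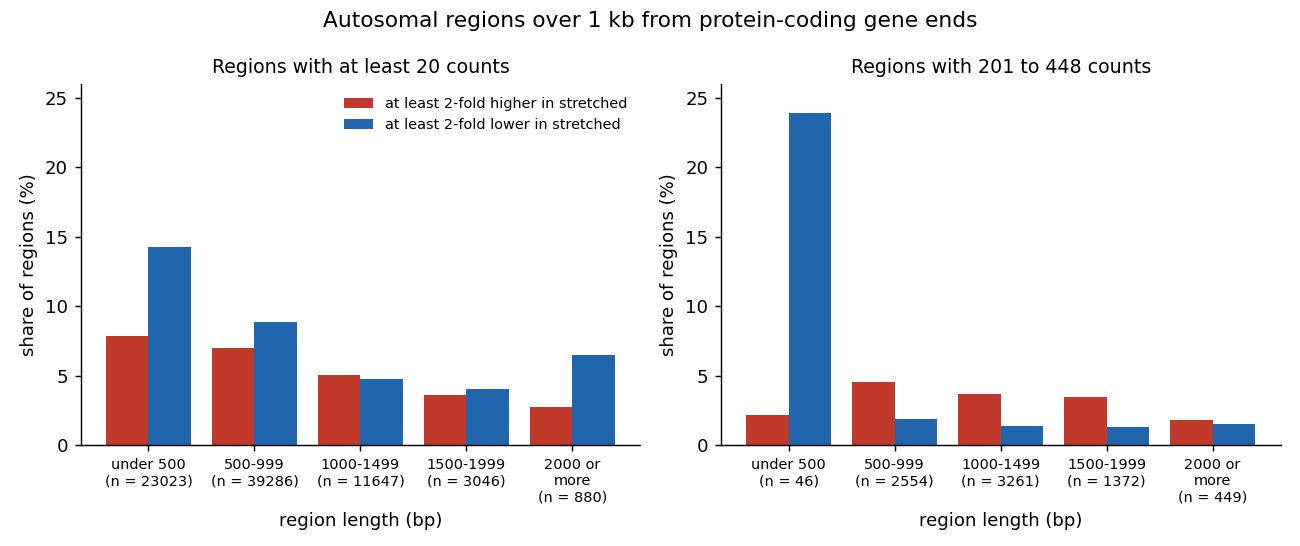
Share of distal autosomal regions in percent, with a fold of at least 2 (red) or at most 0.5 (blue), by region length in bp. The left panel has all regions with at least 20 counts and the right panel those with 201 to 448 counts, with the number of regions under each class. At 201 to 448 counts the broad regions have 1.78% higher and 1.56% lower, and the class under 500 bp holds 46 regions.

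The 24 higher regions had folds of up to 2.84. With scaling by all counts the only one left was near Serinc2, with 19 and 51 counts. The 10 left with scaling by the counts outside the regions above 10000 were those near H4c8, Lgi2, Serpina3i, Shf, Gpc5, Cdkn1b, Eya1, Satb1 and Serinc2 and 1 of the 2 at E2f7. Without the trend with the count, those near H4c8, Lgi2, Serpina3i, Cdkn1b, Eya1, Satb1, Serinc2 and Tango6 were left. The largest among regions with at least 100 counts lay on chromosome 13 (23516935 to 23519766) near the histone gene H4c8, with a count of 31 in the control and 82 after stretching (fold 2.80, 1.83 to 4.37). It had no control peak and 2 stretched summits. Near Lgi2 the counts were 46 and 114 (fold 2.62, 1.84 to 3.77), and the highest pileup, not scaled for depth, was 16 and 64 fragments. Near the serine protease inhibitor gene Serpina3i they were 68 and 167 (2.60, 1.95 to 3.49), with a single summit in each library at nearly the same place, 23 bp apart. The deepest of the regions at the top of the order was a 3486-bp region on chromosome 2 (122375478 to 122378963) near Shf, with 226 and 535 counts (2.50, 2.14 to 2.94) and 5 summits in each library. A region near Gpc5, a glypican gene, had 216 and 482 counts (fold 2.36).

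At E2f7, which encodes an atypical E2F repressor of the cell cycle, both broad regions were higher after TMM scaling. Of these 2 calls 0 were left with scaling by all counts, 1 with scaling by the counts outside the regions above 10000 and 0 without the trend with the count, and both folds stayed above 1 under each. The region inside the gene on chromosome 10 (110750841 to 110753089) had counts of 120 and 275 (fold 2.42, 1.95 to 3.03). The other, beyond the gene end, had 81 and 154 counts, a fold of 2.01 (1.53 to 2.66). Near Cdkn1b, which encodes the cell cycle inhibitor p27, a region that holds the start of the non-coding RNA Lockd had 77 and 171 counts, a fold of 2.35 (1.78 to 3.11). Broad regions at other genes of the cell cycle were not called: the 3 inside Cdk6 had a summed fold of 0.950 (0.807 to 1.12), and those with a start of Cdkn1a and of Cdc14a had 305 and 302 counts and 273 and 279 counts. No list of cell cycle genes was examined, and these genes were picked out after their values were seen. The region far from Eya1, a developmental transcription coactivator, had 46 and 106 counts (2.44, 1.71 to 3.52), with no control peak and 3 stretched summits.

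The 57 lower regions fell into 3 groups, set apart after their values were seen: 39 regions of few counts described below, 5 regions nearest Cwc22 and 13 others. All 5 broad regions nearest Cwc22 were lower. Control and stretched counts were 1684 and 754 (fold 0.473, 0.434 to 0.516), 598 and 137 (0.242, 0.200 to 0.292), 892 and 405 (0.480, 0.426 to 0.540), 1030 and 419 (0.430, 0.383 to 0.482), and 1201 and 388 (0.341, 0.304 to 0.383). Summed they had 5405 and 2103 counts, a fold of 0.411 (0.391 to 0.432). In the control these are among the densest broad regions, and the first reached 748 counts per kb where the median broad region had 65.2. From the first to the last of them, over 115.6 kb of chromosome 2, lay 26 merged regions, these 5 lower ones included. Of the 26, 20 were lower and none higher, and all 26 had a fold below 1. The number of copies of this stretch in these outbred animals was not measured, so more copies and more open chromatin per copy cannot be told apart here. In the 1 Mb before this stretch 17 of 46 regions with at least 20 counts were lower and 3 higher, and in the 1 Mb after it 3 of 11 were lower and 2 higher. Of all merged regions with that many counts, 8.71% were lower and 7.22% higher. Without these 5 regions 52 broad regions were lower.

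The 13 other lower regions had folds from 0.271 to 0.491. Near Neurl1b, which encodes a ubiquitin ligase that acts on Notch ligands, the counts were 219 and 68 (fold 0.328, 0.246 to 0.433), and the summits 5 and 2. Inside Nfix, a nuclear factor I gene, on chromosome 8 (84773664 to 84775748) they were 295 and 104 (0.373, 0.295 to 0.467). Inside Crtc3, a coactivator of CREB, they were 135 and 54 (0.423, 0.302 to 0.584). Inside Ptprf, a receptor tyrosine phosphatase gene, in the region with the Gm52705 window printed above, they were 140 and 59 (0.445, 0.323 to 0.608). In the region with the 6530402F18Rik start near Ntng2 they were 159 and 68 (0.452, 0.335 to 0.604). In the region with the Gm11755 start near Tbc1d16 they were 210 and 92 (0.463, 0.358 to 0.594). The longest region of all, 7795 bp on chromosome 6 near Qrfprl, had 74 and 19 counts (0.271, 0.155 to 0.454) and 5 and 2 summits.

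A set of 75 broad regions (8.36%) stood apart by the relation of pileup to count, a split chosen after the values were seen. In most regions the highest summit pileup was a fraction of the count of the region, with a median of 0.276 in the control over the other 822 regions. In the 75 regions it was at least 0.75 of the control count, with a median of 1.33, and in 63 of them the pileup exceeded the count. They had a median of 20 control and 6 stretched counts, no region with over 100 counts, and 1 control peak in 74 of 75. That peak was wide, with a median of 2170 bp for the longest control peak, against 880.5 bp in the other broad regions. In 72 of the 75 it was longer than 800 bp, the upper limit of the library size selection. The longest control peak also passed 800 bp in 463 of the 802 other broad regions with a control peak. Only 9 of the 75 lay inside a protein-coding gene and 51 lay over 50 kb from a gene end. The 15 regions just below the limit had a ratio from 0.5 to 0.75.

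Counts in these 75 regions were lower in the stretched library. Of the 58 with at least 20 counts, 39 were lower and 0 higher, where 8.71% and 7.22% of all merged regions were. Their median log2 fold was -1.56, and -2.06 with scaling by all counts. Summed, the 75 had 1649 control and 567 stretched counts. A control value chose these regions, and the split was made after the folds were seen. Control peaks covered a median of 94.3% of their length and stretched peaks 31.2%. The length limit was thus reached largely through the control library, so a lower stretched count is in part built in. The stretched pileup reached 0.75 of the stretched count in 41 regions, all of them among the 75, and 34 had no stretched peak. Examples are the 4635-bp region near Nus1 with 43 and 9 counts and control pileup 50, and the 3628-bp region near Tbx18 with 44 and 11 counts and control pileup 56. Of the 10 longest broad regions, 5 belong to this set. The ratio itself was not particular to broad regions, of which 8.36% reached it. It was reached by 13.2% of distal regions under 500 bp, 9.68% from 500 to 999 bp, 2.81% from 1000 to 1499 bp and 4.21% from 1500 to 1999 bp. It was reached by 1 of 1142 regions of at least 2000 bp at gene ends. In a short interval more of the counted fragments can lie over the summit, so these shares are not alike across lengths. Whether the shorter regions share the wide peaks of the set was not tested. Without the 75, 24 of 822 broad regions (2.92%) were higher and 18 (2.19%) lower, and the mean summits per region were 2.72 and 2.65.

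**Figure D4:**
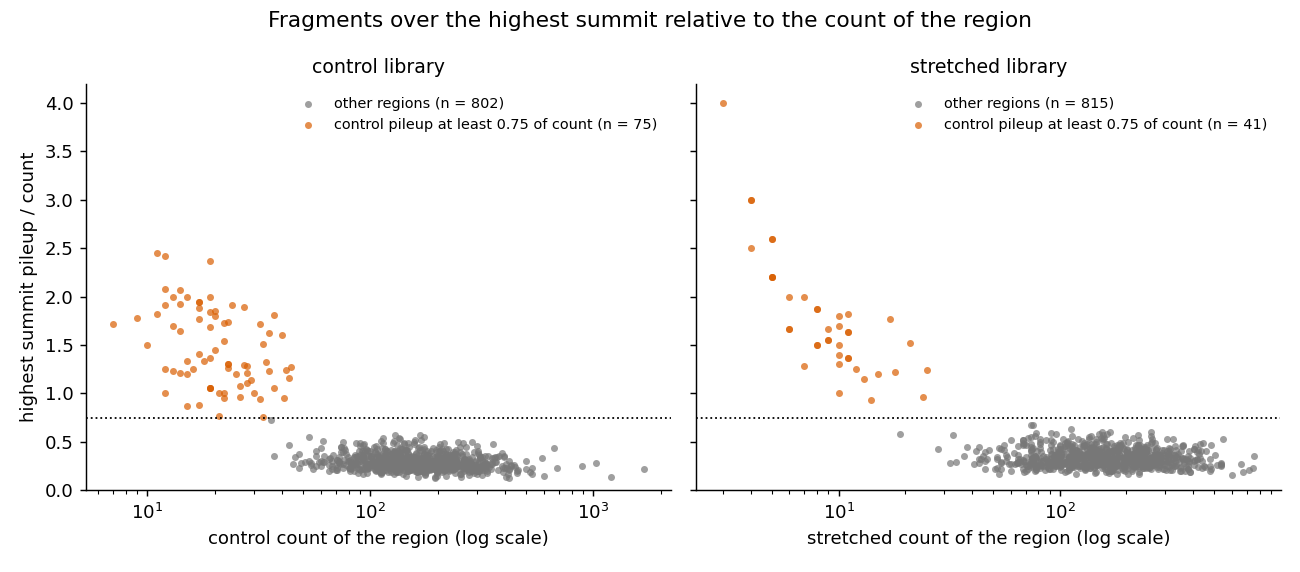
Highest summit pileup in fragments divided by the count of the region, against that count on a log scale, in the control (left) and stretched library (right), for broad distal regions with a listed peak and at least 1 count. Orange points are the 75 regions with a control ratio of at least 0.75 (dotted line), and 41 of them have a stretched peak. Grey points stay below the line in both libraries, at a median of 0.276 in the control.

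Of the 110 broad regions that held the start of a protein-coding transcript, 4 (3.64%) were higher and 0 lower after TMM scaling, where 7.22% and 8.71% of all merged regions were, with a median log2 fold of 0.28 and 79 above 0. Scaling by all counts gave 0 higher, 6 lower and a median of -0.22, where the median of all merged regions was -0.50. Scaling by the counts outside the regions above 10000 gave 0 and 0 with a median of 0.14, against -0.14 in all merged regions. Removing the trend with the count gave 0 and 2 with a median of -0.09, against -0.006 in all merged regions. The 62 with only a non-coding start had 3 higher and 3 lower (median 0.13, and -0.37 with scaling by all counts). The regions outside chromosome 18 with no listed start had 16 higher and 54 lower of 681 (median -0.00). Those 54 include regions of few counts described above and the 5 nearest Cwc22. At 201 to 448 counts, 2 were higher and 0 lower of 54 regions with a coding start (median 0.27), and 5 were higher and 5 lower (1.42%) of 353 with none (median 0.05), so the shares lower were nearly equal there. The 4 higher regions with a coding start hold starts of Stag1, a cohesin subunit gene with 235 and 482 counts (fold 2.17, 1.85 to 2.54), of the kinase gene Dyrk2 with 157 and 324 (2.18, 1.80 to 2.66), of Zmym5 with 72 and 147 (2.16, 1.62 to 2.90) and of Ankrd17 with 137 and 271 (2.09, 1.70 to 2.59). In the Stag1 region the start lay 9 bp from the highest control summit and 14 bp from the highest stretched summit. In the Dyrk2 region it lay 839 and 942 bp away.

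The internal start of Rbpj, the DNA-binding partner of Notch in the nucleus, lay in a 2344-bp region on chromosome 5 (53588763 to 53591106) with 408 and 743 counts. Its fold of 1.92 (1.70 to 2.18) fell short of the limit of 2, and the pileup at the highest summit was 92 and 168 fragments. That summit lay over 1 kb from the start, 1220 bp in the control and 1215 bp in the stretched library. A region of similar size near Klf9, a Krüppel-like factor gene induced by glucocorticoids, holds the start of the non-coding RNA 2410080I02Rik. It had 393 and 718 counts (1.93, 1.70 to 2.19) and 3 and 6 summits.

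The base content of the windows followed the type of transcript. The 141 coding windows in broad regions had a median of 25 CG dinucleotides, against 13 in all coding windows of the RefSeq table, and the 88 non-coding windows a median of 8, against 4 in all non-coding windows. All 32851 windows had a median of 7 and those in long regions at gene ends 25. The hexamer GGGCGG, the core of GC boxes bound by Sp factors, occurred on either strand in 72.3% of the coding windows in broad regions against 46.2% of all coding windows, in 34.1% of the non-coding windows against 16.3% of all non-coding windows, and in 35.7% of all windows. The heptamer TGANTCA, the site of AP-1 dimers of Fos and Jun proteins, occurred on either strand in 4.96% (7 of 141) of the coding windows against 6.99% of all coding windows, in 19.3% (17 of 88) of the non-coding windows against 9.31% of all non-coding windows, and in 7.81% of all. TATAAA occurred in 2.13% of the coding windows against 12.6% of all coding windows, in 11.4% of the non-coding windows against 15.5% of all non-coding windows, and in 13.6% of all. GGAATG, the site of TEAD factors, occurred in 12.8% against 13.6%, in 15.9% against 16.6% and in 14.7%, in the same order. In long regions at gene ends, not split by type of transcript, GGGCGG occurred in 75.2% of windows and TGANTCA in 5.50%. TATAAA occurred there in 5.67% and GGAATG in 9.36%. Many GGGCGG and few TATAAA matches were thus not particular to the broad distal regions. All 4 motifs were searched on both strands and none contains another, and overlapping windows of the same gene share sequence. A match is a description of letters, and the sequence of the broad regions outside the windows was not used here.

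**Figure D5:**
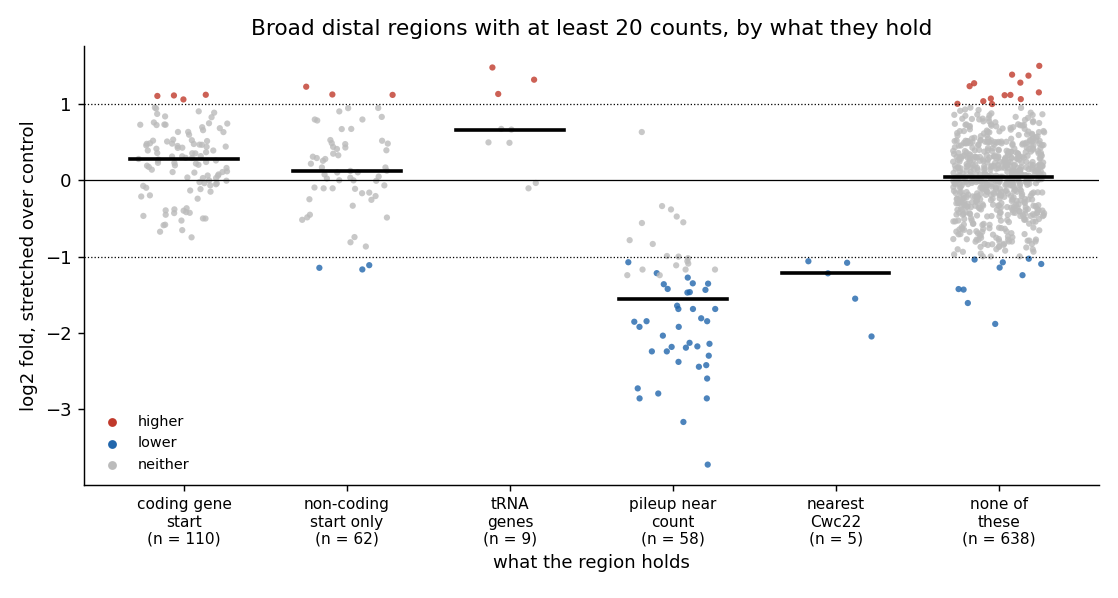
Log2 fold, stretched over control, of each broad distal region with at least 20 counts, by what the region holds. Points are regions (red higher, blue lower, grey neither), black bars are medians, dotted lines are folds of 2 and 0.5, and a region can stand in more than 1 of the first 5 classes. The medians are 0.28 with a coding start, 0.67 with tRNA genes, -1.56 where the pileup is near the count and -1.22 nearest Cwc22.

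Clusters of tRNA genes, which RNA polymerase III transcribes, lay in 9 broad regions, each with 2 to 5 tRNA genes. After TMM scaling 3 of the 9 were higher and 0 lower, where 7.22% and 8.71% of all merged regions were, and 7 had a fold above 1, with a median log2 fold of 0.67. Scaling by all counts left 0 higher, 6 above 1 and a median of 0.17. Scaling by the counts outside the regions above 10000 left 2 higher, and removing the trend with the count left 1. The 3 were the region near H4c8 with 5 tRNA genes given above, the region near Shf with 3 histidine tRNA genes given above, and a region near Osbp with 4 tRNA genes and 127 and 264 counts (fold 2.20, 1.77 to 2.74). The other 6 had 117 and 177 counts near Zfp692, 65 and 87 near Prss16, 59 and 52 near Vmn1r223, 99 and 132 near Hjv, 107 and 99 near Dhx37, and 139 and 209 near Vac14. Shorter distal regions with tRNA genes were also more often higher than lower. Of those from 1000 to 1499 bp 12 of 38 were higher and 2 lower (median log2 fold 0.64), and of those from 1500 to 1999 bp 4 of 28 were higher and 0 lower (median 0.47). This class was picked out after values were seen, and tRNA genes are near-identical copies, so how reads were shared among them is uncertain.

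Genes of epidermal biology were followed through 8 lists of 242 genes. The nearest protein-coding gene of 51 broad regions, 42 genes in all, was on a list, and 49 of these regions had at least 20 counts. Of the 49, 1 was higher (exact binomial interval 0.0517 to 10.9%) and 2 were lower (0.498 to 14.0%). These are too few regions to set apart from the 7.22% higher and 8.71% lower of all merged regions. The median log2 fold was 0.22, and -0.28 with scaling by all counts. Nearness is a position and does not show which gene a region acts on.

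Transcription factors of the epidermis had 23 broad regions at 17 genes. They made up 1.99% of the distal regions nearest these genes, where 0.983% of distal regions nearest any gene were broad. This share was 2.11% for the keratin, adhesion and basement membrane list, and it ran from 0% to 1.12% for the other lists. At Satb1, a chromatin organizer, the counts of 3 regions were 55 and 116 (fold 2.23, 1.60 to 3.13), 147 and 245 (1.76, 1.43 to 2.18) and 119 and 160 (1.42, 1.11 to 1.82), all 3 above 1 and 1 past the limit, a call lost with scaling by all counts. Tfap2c, an AP-2 factor gene, had 211 and 370 counts (1.85, 1.56 to 2.20) and Gata3 179 and 275 (1.62, 1.34 to 1.97). In the other direction stood Nfix, given above, and Casz1, a zinc finger factor gene, with 289 and 128 counts on chromosome 4 (148857415 to 148860196; fold 0.468, 0.377 to 0.578). Both regions of Rxra, a retinoid receptor gene, had fewer stretched counts, 685 and 408 (0.629, 0.555 to 0.713) and 585 and 304 (0.549, 0.476 to 0.632), without reaching the limit after TMM scaling. Both passed it with scaling by all counts and without the trend with the count. The Grainyhead genes Grhl2 with 99 and 56 counts and Grhl3 with 109 and 65 also stayed within 2-fold, as did Bnc1, Ehf, Runx1, Tfap2a and Zfp750.

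Keratin, adhesion and basement membrane genes had 11 broad regions. After TMM scaling 0 of the 11 were called, too few regions to set apart from the 7.22% higher and 8.71% lower of all merged regions. The region near Itga6, the gene of the sorting marker, had 130 and 146 counts (fold 1.19, 0.931 to 1.51). At Nectin1, a cell adhesion receptor gene, both regions had fewer stretched counts, 234 and 127 (0.574, 0.458 to 0.715) and 215 and 116 (0.570, 0.451 to 0.718), and both were called lower with scaling by all counts and without the trend with the count. Dst, the gene of a hemidesmosome linker, had a 3206-bp region with 446 and 383 counts, Plec 528 and 515 and Itgb1 86 and 127. No broad region was nearest to a gene of the follicle list, out of 222 distal regions, or of the differentiation and barrier list, out of 115.

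Signalling genes had few broad regions, and the 0 called among them after TMM scaling can likewise not be set apart from those shares. Notch, Wnt and BMP genes had 6 regions, among them Axin2, a Wnt target, with 136 and 216 counts (fold 1.68, 1.35 to 2.10), Bmp2 with 116 and 183, and Wnt4 with 427 and 260 at a distance of 74889 bp and 285 and 268 at 3920 bp. The 5 regions of EGFR, MAPK and TGF-beta genes included Tgfa with 284 and 258 counts and Tgfb2 with 201 and 237. The 5 regions of the YAP and actomyosin list included both regions of Amotl1, a partner of YAP, with 117 and 130 and 203 and 234 counts. The only region of the AP-1 and immediate-early list, near Ier5, had 114 and 155 counts.

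Several genes had more than 1 broad region. After the 5 nearest Cwc22, 11 genes had 3 each, and 807 genes were nearest to at least 1. The 3 regions inside Trp73, a p53 family gene, had 161 and 215, 122 and 101, and 273 and 232 counts, with a summed fold of 1.04 (0.924 to 1.17). Those at Ywhaz, a 14-3-3 protein gene, had 49 and 47, 407 and 660, and 135 and 116 counts, so the summed fold of 1.47 (1.32 to 1.64) came from the region with the most counts. Those inside Cdk6, a cyclin-dependent kinase gene, had 53 and 72, 65 and 63, and 199 and 150. With TMM scaling the folds of a gene's regions thus lay on both sides of 1 at Trp73, Ywhaz and Cdk6, and on the same side at Cwc22, Satb1 and Rxra. Only 22 broad regions had the next broad region within 20 kb.

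The sort was checked with the counts of regions within 1 kb of marker gene ends. For 8 basal keratinocyte genes the control sum was 1725 and the stretched sum 1907, with Lamb3 at 0. Of 9 melanocyte genes Tyr, Tyrp1 and Ednrb were at 0, and the list summed to 857 and 951. Fibroblast genes summed to 169 and 93 with 5 of 9 at 0 (Pdgfra, Col3a1, Dcn, Lum and Dpt), immune genes to 91 and 91 with 6 of 9 at 0, and endothelial genes to 138 and 102 with 3 of 7 at 0. Broad regions lay nearest Mitf, with 180 and 130 counts, Dpt, with 134 and 246, and Pecam1, with 224 and 183. The part of other cell types in the differences was not tested. Fewer cells of a type and less open chromatin per cell cannot be told apart in these bulk libraries.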

How the data were processed

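ATAC-seq of sorted basal cells of 1 control and 1 stretched CD1 mouse was analysed from processed files, grouped by the treatment label. The submitters' processing notes list the build GRCm38, HTSeq, Picard, SAMtools, MACS2 2.1.0.20151222 and Bowtie2 2.2.6. Per the file headers, the authors ran MACS2 on paired-end fragments of each library separately (q cutoff 0.05, no control sample, summits called), from alignments whose file name says that duplicates had been removed. The deposited pileup is a signal in whole fragments. The deposited fold enrichment (a ratio) and -log10 q-values compare it with the surrounding background. The deposited counts are raw counts over 1 list of merged regions. For these counts the program, the unit, duplicate removal, the Tn5 shift and the merging rule are not stated in the sources used here. They have no molecular identifiers, and intervals cover counting error only.

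Starts in the files are 0-based and were converted to 1-based. Distances were taken to both ends of 21900 protein-coding genes, with start windows from RefSeq on the same build. Scaling used TMM in edgeR 4.0.16 (R 4.3.3). Intervals are exact Clopper-Pearson (95%) on the stretched share of the summed count, with 0 floored at 3 for a fold. With 1 library per group only sizes were compared. Other tools were statsmodels 0.14.6, scipy 1.17.1, pandas 2.3.3, numpy 2.4.6, matplotlib 3.10.9 and Python 3.11.15. Regions named are the 10 with the most counts, the 10 longest, the 10 with the most summits, the 10 with the largest fold each way among those with at least 100 counts, and those nearest a listed gene. Other regions were named after their values were seen, and those on chromosome 18 were counted but not named. The broad regions and the gene lists were chosen with earlier results of these data known. Alternatives were other scalings (DESeq2 1.42.0 size factors among them), lengths, distances, count limits and peak thresholds.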

Additional observations from a re-analysis of the deposited data

How the results depend on the processing

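Higher calls, lower calls and the median log2 fold were 24, 57 and 0.04 as reported. Scaling by all counts gave 1, 164 and -0.46, and scaling by the counts outside the regions above 10000 gave 10 higher and a median of -0.10. Removing the lowess trend with the count gave 8 higher, 85 lower and a median of -0.22, and the share lower of 9.66% was then above the 7.47% of all merged regions. The 176 regions of at least 2500 bp gave 7 higher and 22 lower (12.5%), and the 47 of at least 3000 bp gave 3, 13 (27.7%) and -0.016, so the share lower was above the 8.71% of all merged regions in both. A fold limit of 1.5 gave 117 and 126 (14.3% lower, against 13.7% of all merged regions). A minimum of 100 counts gave 16 lower of 804 (1.99%, against 2.87%) and a median of 0.083. DESeq2 size factors gave 24 and 57. Fewer regions were counted in the subsets by length and count, and the cause of the other shifts was not tested. Chosen after the data were seen, leaving out the 75 regions with control pileup near the count gave 18 lower, summit means of 2.72 and 2.65 and 57.8% inside genes, leaving out Cwc22 gave 52 lower, and lifting the count limit gave 27 higher. Summit means (2.60 control, 2.48 stretched) were 1.23 and 1.31 with a -log10 q of at least 10, and 2.96 and 2.85 at 2500 bp or more, where 48.6% lay inside genes. No paired analysis was possible because each group has 1 library, and for the same reason no library could be left out. A region of 20 counts resolves only large folds.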
